A study of Mus musculus with 2 samples.

Results

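The genes described here encode the proteins of the mitochondrial ribosome of the mouse. They were taken as every protein-coding gene of the GENCODE vM21 annotation whose symbol is Mrpl or Mrps followed by a digit. There were 78 such genes among 21938 protein-coding genes of the nuclear chromosomes. For each of them, binding of the transcription factor Myb was read from ChIP-Seq peaks whose summit, the position of highest signal, lay within 3 kb of an annotated transcript start. Such a peak is called a promoter peak below. Where a gene has several annotated starts, distances are to the nearest of them, which can be an alternative start inside the gene.

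The study asked which genes Myb occupies in normal blood progenitors, in the setting of p300 loss in Tet2-deficient mice. WT mice gave the bone marrow, from which mature blood cells were depleted to leave lineage-negative (Lin-) cells at a purity above 80% per the labels. Each precipitation used 1 μg of chromatin and 1.5 μg of an antibody against Myb or of normal rabbit IgG. The labels give the genotype of both groups as WT and no treatment or age. In the study's methods WT stands for Ep300 fl/fl mice without the Mx1-Cre transgene, in which Ep300 stays intact, and these were injected with poly(I:C), an inducer of interferon, like the mutant mice. Whether the mice used for this ChIP-Seq were injected is not stated in the labels, nor how many mice supplied the cells.

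There were 2 libraries, 1 of Myb and 1 of IgG, and the IgG library enters only as the background in the Myb peak list. The list held 25793 peaks, of which 14845 were promoter peaks of some gene. With no replicate library, no difference below has a replicate check, and no p-value was computed. The read totals of the libraries are unknown, but the reads at each summit could be recovered from the deposited fold enrichment and p-value, with a median of 18 reads over all peaks. Myb reads are given unscaled, whereas the fold enrichment compares a scaled Myb pileup with the IgG background. The plain quotient of Myb reads and IgG background is therefore not the fold enrichment. A peak list holds no expression values, so the Lin- label could not be checked against marker genes.

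The mitochondrial ribosome translates the few messages of the mitochondrial genome, which encode core subunits of the respiratory chain and of ATP synthase. Its RNAs are made inside the mitochondrion, whereas all of its proteins are encoded in the nucleus, made in the cytosol and imported. The large subunit holds the peptidyl transferase center and the exit tunnel, and the small subunit holds the decoding site. Part of the proteins descend from bacterial ribosomal proteins and the rest have no bacterial counterpart. Myb is a DNA-binding factor that progenitors of the blood need to proliferate, and its recognition element is built around the bases AAC.

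Of the 78 genes, 55 had a promoter peak, which is 70.5%, and 39.9% of all protein-coding genes had one. The 55 genes shared 70 distinct peaks, since the divergent pair Mrps11 and Mrpl46 lies under the same peak. These peaks were mostly close to the start. The strongest peak of each gene had a median fold enrichment over IgG of 4.16 (quartiles 3.54 and 5.48), and that of all protein-coding genes with a promoter peak had a median of 5.25 (quartiles 4.17 and 6.84). The share of genes bound depended on peak strength: where the −log10 q-value had to reach 5, 22 of the 78 genes were left (28.2%), against 24.3% of all protein-coding genes. With the summit within 500 bp of a start, 51 of the 78 genes were bound (65.4%), against 31.8% of all protein-coding genes.

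**Figure D1:**
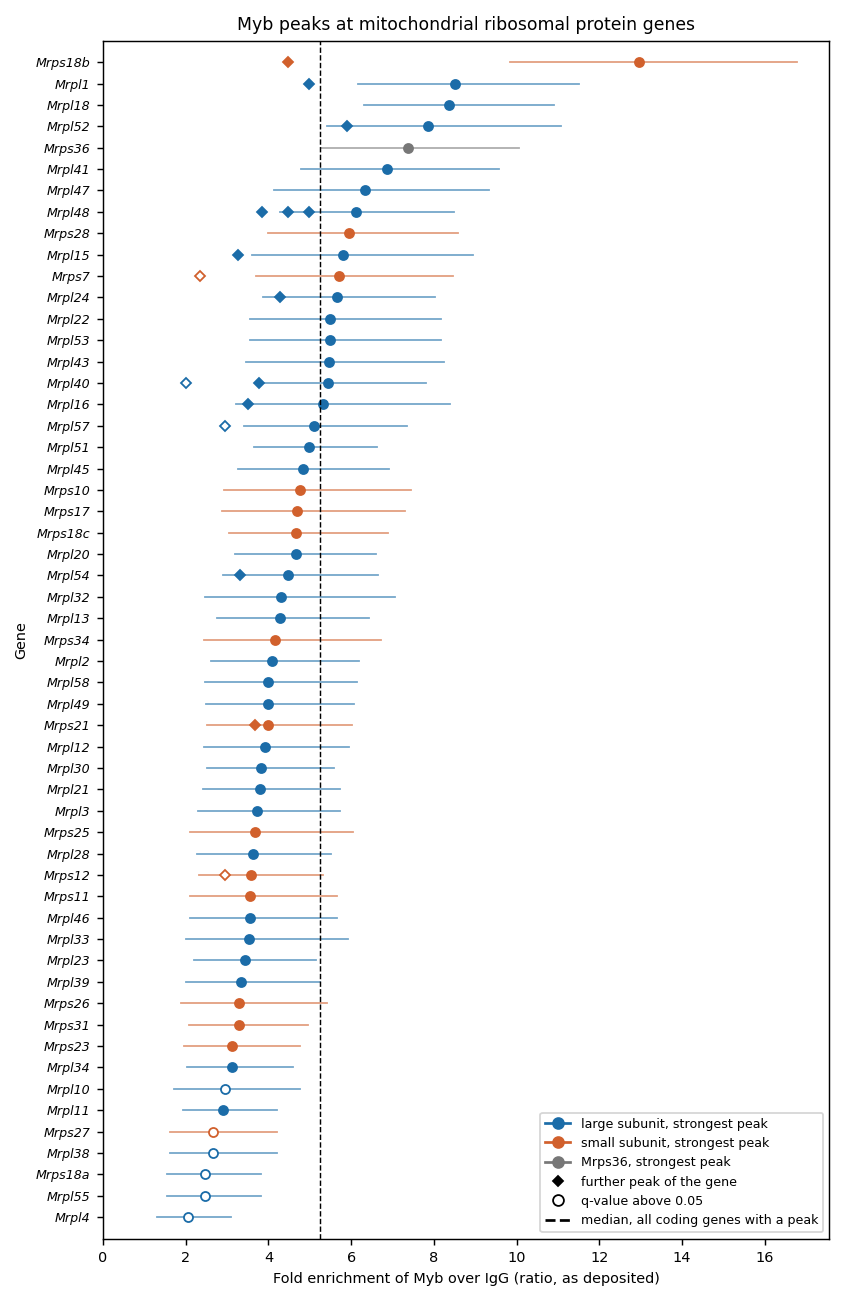
Fold enrichment of Myb over IgG (x axis, ratio) for the 55 mitochondrial ribosomal protein genes with a promoter peak (y axis, ranked by their strongest peak). Circles are the strongest peak of a gene, with a line for the Poisson 95% interval of its Myb reads, diamonds are further peaks of the same gene, and open symbols have a q-value above 0.05. Mrps18b is highest at 12.97, and most genes sit left of the dashed line, the median of 5.25 for all protein-coding genes with a promoter peak.

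The summit sequences of 6 of the 10 genes with the strongest peaks are given first, each on the plus strand of mm10 with 50 bases to either side of the summit. Mrpl48 and Mrpl15 are shown because a Myb motif lies under their summit, with the motif in capitals, and the other 4 because they are the strongest peaks of the group whose windows do not touch an annotated untranslated region.
Mrpl48: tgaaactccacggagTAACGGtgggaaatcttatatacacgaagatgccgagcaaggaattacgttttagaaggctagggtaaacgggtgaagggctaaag
Mrpl15: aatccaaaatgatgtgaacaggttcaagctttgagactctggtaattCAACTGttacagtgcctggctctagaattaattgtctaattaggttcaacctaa
Mrps18b: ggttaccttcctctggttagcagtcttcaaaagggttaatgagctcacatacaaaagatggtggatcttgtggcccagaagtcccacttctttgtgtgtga
Mrpl1: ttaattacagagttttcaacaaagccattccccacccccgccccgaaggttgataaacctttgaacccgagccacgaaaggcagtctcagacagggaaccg
Mrpl52: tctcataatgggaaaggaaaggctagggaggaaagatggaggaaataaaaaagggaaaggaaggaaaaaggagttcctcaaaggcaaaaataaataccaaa
Mrps36: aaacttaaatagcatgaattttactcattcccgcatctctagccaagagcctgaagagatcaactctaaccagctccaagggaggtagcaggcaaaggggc
The windows lie at chr7:100607128-100607228 for Mrpl48, chr1:4786000-4786100 for Mrpl15, chr17:35918054-35918154 for Mrps18b, chr5:96209895-96209995 for Mrpl1, chr14:54424939-54425039 for Mrpl52 and chr13:100743971-100744071 for Mrps36.

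The strongest peak was at Mrps18b, which encodes a variant of ribosomal protein S18 in the small subunit. It spanned chr17:35915755-35921315, held 55 Myb reads at its summit (exact Poisson 95% interval 41.4 to 71.6) over an IgG background of 2.34 reads, and had a −log10 q-value of 33.3. Its summit was 1715 bp upstream of Mrps18b and inside an exon of the divergent gene Ppp1r10, which encodes a regulatory subunit of protein phosphatase 1 and whose start was 908 bp away. The microRNA gene Mir1894 had the nearest start of all, at 215 bp. A weaker peak with 22 reads lay past the far end of Mrps18b, 70 bp from the start of Atat1, the tubulin acetyltransferase gene. Its distance to Mrps18b, 2627 bp, was measured to an alternative start inside that gene. So neither peak of Mrps18b had Mrps18b as its nearest coding gene.

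Mrpl1, which encodes a protein of the L1 stalk of the large subunit, had the next strongest peak and no other coding start within 3 kb of it. That peak, chr5:96209397-96210359, had a fold enrichment of 8.52 from 40 reads (28.6 to 54.5) over a background of 2.73 reads, with the summit in an intron, 170 bp upstream of the nearest annotated start. A weaker peak of Mrpl1 had 4.97 from 16 reads, 789 bp upstream. Mrpl18, a large-subunit protein of the 5S RNA-binding family, had a fold enrichment of 8.37 from 52 reads (38.8 to 68.2) at chr17:12915106-12916933. The summit of Mrpl18 fell 218 bp upstream of its start, in an exon of Tcp1, a subunit gene of the cytosolic chaperonin whose start was nearer at 88 bp. Mrpl52, a large-subunit protein with no bacterial homologue, had a peak of 7.85 from 30 reads (20.2 to 42.8) at chr14:54424557-54425538, 1920 bp upstream, and a second peak of 5.89 from 37 reads only 310 bp upstream. The second Mrpl52 peak thus had more reads and less enrichment, since its background was 4.0 reads against 2.07 reads.

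Mrps36 carries a ribosomal symbol, but its protein is a subunit of the oxoglutarate dehydrogenase complex of the citric acid cycle. Its peak at chr13:100743548-100744753 had a fold enrichment of 7.37 from 37 reads (26.1 to 51.0), with the summit in an exon, 92 bp downstream of the nearest annotated start. Mrpl41, a large-subunit protein, had 6.87 from 32 reads (21.9 to 45.2) at chr2:24974642-24977500, where the summit lay 1127 bp upstream of Mrpl41 and 77 bp from the start of the lysophospholipase gene Pnpla7. Mrpl47, the L29 homologue near the tunnel exit, had 6.34 from 23 reads (14.6 to 34.5) at chr3:32736533-32737004. That summit was 436 bp downstream of the nearest annotated start of Mrpl47. It was 279 bp from the start of Ndufb5, which encodes a subunit of respiratory complex I.

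Mrpl48 had 4 promoter peaks, the most of any of the 78 genes. The strongest, chr7:100606304-100608260, had a fold enrichment of 6.12 from 33 reads (22.7 to 46.3), and its summit was 232 bp from the start of Rab6a, a GTPase gene of Golgi transport, and 460 bp from that of Mrpl48. The other peaks of Mrpl48 had fold enrichments of 4.97, 4.47 and 3.84. The first of these lay well inside the gene, 492 bp from an alternative start. Mrps28, the small-subunit homologue of S1, had a single narrow peak of 234 bp at chr3:8923571-8923804, with 5.94 from 26 reads (17.0 to 38.1). Mrpl15, whose product sits at the core of the large subunit, had 5.80 from 18 reads (10.7 to 28.4) at chr1:4785793-4786485 and a weaker peak of 3.25 from 12 reads on the other side of its start. For 5 of these 10 genes, namely Mrps18b, Mrpl18, Mrpl41, Mrpl47 and Mrpl48, another coding gene had the nearer start. The fold interval of Mrps18b, 9.84 to 16.8, overlapped those of Mrpl1, Mrpl18, Mrpl52 and Mrps36 and lay above those of the other 5 genes. From Mrpl1 on, neighbors in this order overlapped in their fold intervals.

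Another 8 genes had more than 1 promoter peak. Mrps7, the S7 homologue, had peaks of 5.70 from 22 reads and 2.35 from 14, and both summits were nearer to Gga3, a clathrin adaptor gene. Mrpl24 had 5.66 from 29 reads, at 1 bp from its start, and 4.29 from 21. Mrpl40 had 5.44, 3.77 and 2.01 from 27, 16 and 17 reads, and the strongest of them was 28 bp from the start of the histone chaperone gene Hira and 232 bp from that of Mrpl40. Mrpl16, the L16 homologue, had 5.32 from 16 reads at 2165 bp upstream and 3.5 from 13 reads at 541 bp downstream. Mrpl57 had 5.10 and 2.94 (26 and 14 reads), and Mrpl54 had 4.48 and 3.32 (22 and 11 reads). Mrps21 had 3.98 and 3.67 (20 and 13 reads), and Mrps12, a protein of the decoding site, had 3.59 and 2.94 (22 and 14 reads). The weaker Mrps21 peak lay past the far end of the gene, 1309 bp from an alternative start inside it. In all, 13 of the 55 bound genes had 2 or more peaks (23.6%), and 44.9% of all bound protein-coding genes did.

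At the low end were Mrpl4 with 2.05, Mrpl55 and Mrps18a with 2.48 each, and Mrpl38 and Mrps27 with 2.66 each. Mrpl4, whose bacterial homologue lines the exit tunnel, had 20 reads (12.2 to 30.9), as many as the median of the group, over a background of 7.0 reads, the highest of the 70 peaks. Mrpl55 and Mrps18a each had 18 reads over 5.0 background reads, and Mrpl38 and Mrps27 each had 16 over 4.0. These 5 genes and Mrpl10, a protein of the stalk base with 2.94 from 14 reads over 3.0, were the 6 genes whose strongest peak had a q-value above 0.05. Their −log10 q-values were 0.459 for Mrpl4, 0.856 for Mrpl55 and Mrps18a, 1.21 for Mrpl38 and Mrps27, and 1.19 for Mrpl10. Whether these 6 genes are bound is therefore uncertain at this depth. Over all 70 peaks the q-value was above 0.05 in 10 (14.3%), and over all promoter peaks in 6.99%. Peaks were called from pseudo-replicates, random subsets of the reads, with a q-value cutoff of 0.05 per the methods, and the deposited list holds peaks on both sides of it. With a q-value of at most 0.05, 49 of the 78 genes had a promoter peak (62.8%), against 38.4% of all protein-coding genes.

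The 70 peaks had a median fold enrichment of 4.04 (95% interval of the median from order statistics 3.71 to 4.66), and the 14845 promoter peaks of all genes had a median of 4.54, inside that interval. Taken by the strongest peak of each gene, the median of 4.16 had an interval of 3.71 to 4.83, below the 5.25 of all protein-coding genes, which also more often had several peaks to choose from. Both intervals reflect only the spread among peaks or genes of 1 library. These are not replicates, so the intervals test neither difference. The median number of Myb reads at the summit was 20 at these peaks and 19 at all promoter peaks. The local IgG background had a median of 3.0 reads (quartiles 2.14 and 3.97) at these peaks and of 2.13 reads (quartiles 1.79 and 3.0) at all promoter peaks. A background of at least 2.9 reads, a line chosen after the values were seen, was found at 41 of the 70 peaks (58.6%) and at 32.4% of all promoter peaks. The background was also higher at matched positions: for summits within 100 bp of a start its median was 3.0 reads at these genes and 2.34 reads at all protein-coding genes, with 20 and 21 Myb reads. The part of the background in the fold enrichment was not tested. Only 1 of the 70 peaks, that of Mrps18b, reached a fold enrichment of 10 (1.43%, against 4.30% of all promoter peaks).

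**Figure D2:**
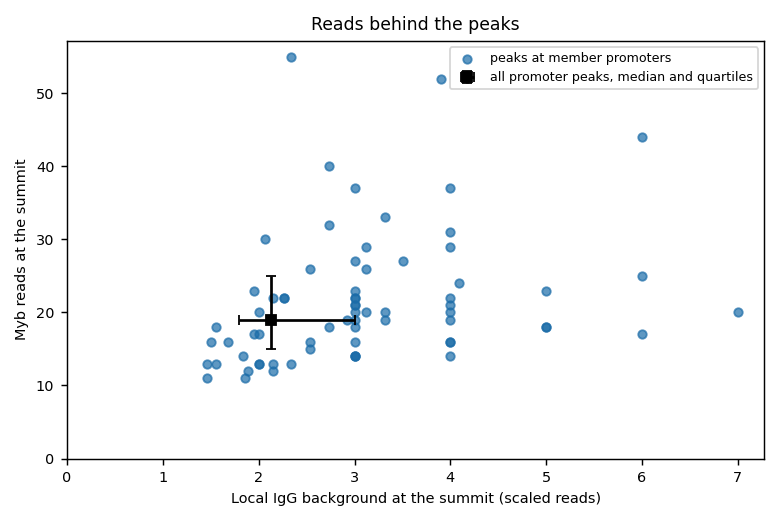
Myb reads at the summit (y axis) against the local IgG background in scaled reads (x axis) for the 70 peaks of the mitochondrial ribosomal protein genes, each a circle. The square is the median of all promoter peaks, 2.13 background reads and 19 Myb reads, with bars to the quartiles; most circles lie to its right at a similar height.

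The peaks clustered at the starts. The strongest peak of the 55 bound genes lay at a median of 103 bp from the nearest annotated start, and that of all bound protein-coding genes at 246 bp. It lay within 100 bp in 27 of the 55 (49.1%, against 26.1%) and within 500 bp in 50 (90.9%, against 65.9%). Among all 71 pairs of a gene and a peak, 33 summits were upstream of the start and 38 downstream. The median distance over pairs was 170 bp, and 278 bp where only the outermost start of each gene was used. By annotation 34 summits were in an exon of the gene itself, 8 in an intron of it, 10 in an exon of another gene, 6 in an intron of another gene and 13 between genes. The summits nearest the start were not the strongest: the median fold enrichment was 3.8 within 100 bp, 4.39 from there to 500 bp and 4.38 beyond. For all protein-coding genes these medians were 4.78, 4.74 and 4.40. At the outer edge of the window, the 2627 bp of the second Mrps18b peak and the 2165 bp of Mrpl16 were the longest distances counted. Just outside were Mrpl35, at 3694 bp from the nearest summit, and Mrps16, at 4663 bp.

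**Figure D3:**
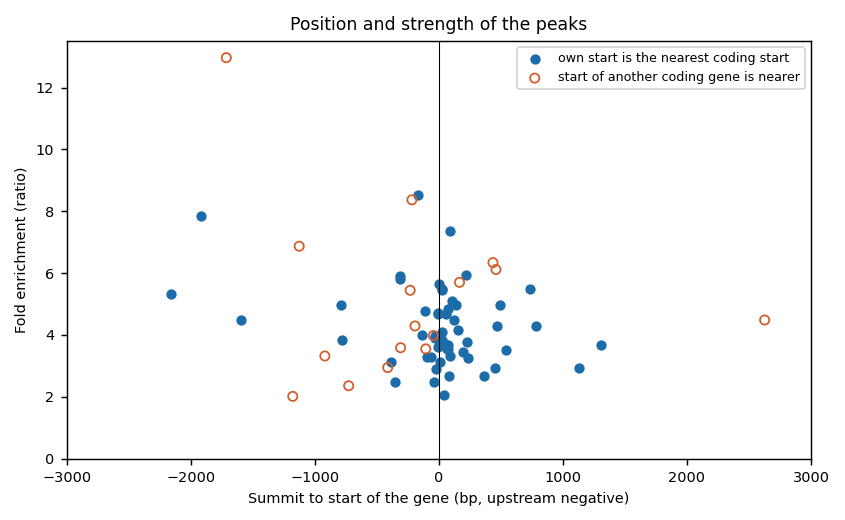
Fold enrichment (y axis, ratio) against the distance from the nearest start of the gene to the summit (x axis, bp, upstream negative) for the 71 pairs of a mitochondrial ribosomal protein gene and a peak. Open circles mark the 16 pairs in which another coding gene has the nearer start, among them Mrps18b at 12.97; filled circles crowd within 500 bp of the start.

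Many of these promoters are shared with a neighbor that is read in the other direction. Another coding gene started on the opposite strand within 1 kb of 33 of the 78 genes (42.3%), and this was so for 11.8% of all protein-coding genes. Among genes with such a neighbor, 24 of the 33 were bound (72.7%), and among all protein-coding genes with one 75.4% were. Among genes without one, 31 of 45 were bound (68.9%), and 35.2% of all protein-coding genes without one were. For the strongest peak, a start of another gene was the nearest in 14 of the 55 genes, and a start of another coding gene in 12. No such count over all bound protein-coding genes is given, here or for the strongest genes above, so whether these counts are unusual cannot be told. Besides those named above, the 12 included Mrpl13, nearer to Mtbp, which encodes a partner of the Mdm2 ubiquitin ligase, with 4.29, Mrpl10, nearer to Lrrc46, and Mrpl49, with 3.98, nearer to Fau, which encodes a fusion precursor of a cytosolic ribosomal protein. The strongest peak of Mrps21 was nearest to the transcript C920021L13Rik and that of Mrpl55 to 2610507I01Rik.

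Some of the partners also work in mitochondria. Mrps12 shared its peak with Sars2, the mitochondrial seryl-tRNA synthetase, whose start was 121 bp from the summit against 309 bp for Mrps12. Mrps11 and Mrpl46 encode proteins of different subunits and overlap at their starts. The summit of their common peak of 3.55 from 15 reads (8.40 to 24.7) lay 76 bp into Mrps11. It was also in an intron of Mrpl46, 106 bp upstream of the nearest annotated start of that gene. Mrpl43 and Twnk, the mitochondrial DNA helicase, shared a peak of 5.46, and Mrps27 and Ptcd2 one of 2.66. Other shared peaks joined Mrps18c with Helq (4.67), Mrpl51 with the condensin gene Ncapd2 (4.98), Mrpl21 with Ighmbp2 (3.8), Mrpl30 with Mitd1 (3.82) and Mrpl32 with the proteasome gene Psma2 (4.3). Mrpl2 shared a peak of 4.1 with Klc4, and Mrps34 one of 4.16 with Eme2, where Nme3 also started within 3 kb of the summit. Abhd8 started within 3 kb of the summit of Mrpl34 (3.12), and Ccdc142 within 3 kb of that of Mrpl53 (5.5). Neither was a divergent neighbor within 1 kb, and Mrpl34 and Mrpl53 had the nearer start. Both peaks of Mrpl57 lay near the kinetochore gene Ska3, and both of Mrpl54 near Apba3. A summit cannot be given to one gene of such a pair from its position alone. When each summit was given only to the nearest coding start, 46 of the 78 genes kept a peak (59.0%), against 35.8% of all protein-coding genes. The 9 genes that lost theirs were Mrpl10, Mrpl13, Mrpl18, Mrpl41, Mrpl46, Mrpl47, Mrpl49, Mrps7 and Mrps18b.

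Among all protein-coding genes, the share bound moved with the CpG content of the promoter. By a CpG-rich definition of a CpG observed-to-expected ratio of at least 0.6 and a GC content of at least 55% within 500 bp of the gene start, 27 of 39 CpG-rich genes of the group were bound (69.2%), against 63.7% of all CpG-rich protein-coding genes. Of the 39 others, 28 were bound (71.8%), against 25.2% of all other protein-coding genes. Those 39 were not like the rest of the CpG-poor class, because their median CpG ratio was 0.67 and that of all CpG-poor genes 0.27. By the CpG ratio alone, 69 of the 78 genes reached 0.6 (88.5%, against 46.0% of all protein-coding genes), and 49 of the 69 were bound (71.0%, against 64.1%). The distance to all protein-coding genes was therefore smaller in this class than over all genes. Of the 9 genes below it, 6 were bound (66.7%, against 19.4%), a larger distance in a small class. The ratio was scored around the gene start, whereas peaks were counted at any annotated start. Among these 6 bound genes, the summit lay outside the scored window for Mrpl20, Mrpl23 and Mrpl33, so their ratio does not describe the bound promoter. Some bound genes with a higher ratio, such as Mrpl47 and Mrps36, have the same limit.

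By place in the ribosome, 39 of 51 genes of the large subunit (76.5%) and 15 of 26 of the small subunit (57.7%) had a promoter peak. Mrps18a and Mrps30 were counted in the large subunit, where their proteins sit, and Mrps36 in neither. Counted by symbol alone, the shares were 38 of 49 Mrpl genes (77.6%) and 17 of 29 Mrps genes (58.6%). The median of the strongest peak was 4.29 in the large subunit and 3.98 in the small subunit. Where the −log10 q-value had to reach 5, 17 of the 51 large-subunit genes (33.3%) and 4 of the 26 small-subunit genes (15.4%) were left, beside 24.3% of all protein-coding genes. Genes of bacterial descent were bound in 31 of 46 cases (67.4%) and the others in 23 of 31 (74.2%). The lowest share was in small-subunit genes of bacterial descent, at 8 of 16, and the other small-subunit genes were at 7 of 10. Mrps18a and Mrps18b are paralogs within the S18 family and were counted with the genes specific to mitochondria. Counted with the bacterial homologues instead, they changed the small-subunit values to 9 of 17 and 6 of 9. No test was made of these differences, which rest on 1 library.

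In the large subunit, the bound genes not yet named were Mrpl3, Mrpl11 and Mrpl12 among the bacterial homologues, with 3.71, 2.89 and 3.91, and Mrpl20, Mrpl22, Mrpl23, Mrpl28 and Mrpl33 with 4.66, 5.5, 3.43, 3.62 and 3.54. Mrpl12 forms the flexible stalk that contacts the elongation factors, and Mrpl11 the base of that stalk. Mrpl39, Mrpl45 and Mrpl58 have no counterpart in bacterial ribosomes, and their peaks were at 3.33, 4.83 and 3.98. Mrpl45 faces the inner membrane at the tunnel exit, and Mrpl58 descends from a release factor and can free stalled peptides. In the small subunit, Mrps10 and Mrps17, both of bacterial descent, had 4.77 and 4.69. Mrps23, Mrps25, Mrps26 and Mrps31 had 3.12, 3.67, 3.29 and 3.28.

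The other 23 genes had no promoter peak. In the large subunit these were Mrpl9, Mrpl14, Mrpl17, Mrpl19, Mrpl27, Mrpl35, Mrpl36, Mrpl37, Mrpl42, Mrpl44, Mrpl50 and Mrps30. In the small subunit they were Mrps2, Mrps5, Mrps6, Mrps9, Mrps14, Mrps15, Mrps16, Mrps22, Mrps24, Mrps33 and Mrps35. The nearest summit was a median of 46.5 kb from their starts. It was within 10 kb in 4 of them, namely Mrpl35 (3.69 kb), Mrps16 (4.66 kb), Mrps24 (6.06 kb) and Mrps35 (7.23 kb). From 12.7 to 24.1 kb lay Mrpl42 (12.7), Mrpl44 (13.5), Mrps14 (16.6), Mrps6 (20.2), Mrps15 (20.3) and Mrpl27 (24.1). Farther off were Mrpl50 (42.3 kb), Mrps2 (46.5 kb), Mrpl14 (57.4 kb), Mrpl17 (58.7 kb), Mrps5 (62.7 kb) and Mrps33 (80.0 kb). Beyond 100 kb lay Mrpl37 and Mrps22 (each 112 kb), Mrpl9 (139 kb), Mrpl36 (145 kb), Mrps9 (196 kb), Mrpl19 (687 kb) and Mrps30 (845 kb).

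Genes with and without a peak had similar promoter types. They were CpG-rich in 12 of 23 and had a divergent coding neighbor in 9 of 23, and bound genes in 27 of 55 and 24 of 55. Their median CpG ratio was 0.70 and that of bound genes 0.72. Mrpl36, the L36 homologue, starts opposite Ndufs6, a complex I gene, and had no peak on either side within 3 kb. A gene without a peak in the list is not shown to be free of Myb.

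The Myb motif was no more common at these summits than at others. It was defined as AACGG or AACTG with a C or T in front, on either strand and whole within 50 bp of the summit. The form with C in front of AACTG is at the same time an E-box of the general type CANNTG. Such a word was found at 10 of the 70 summits (14.3%, exact Clopper-Pearson 95% interval 7.07% to 24.7%) and at 14.7% of all promoter summits. Windows of the same size centered 500 bp to either side held it in 13.6% of cases at these genes and in 10.2% at all promoter peaks. The 10 summits belonged to Mrpl48, Mrpl15, Mrpl24, Mrpl16 (both peaks), Mrps10, Mrpl20 and the weaker peaks of Mrps21, Mrpl54 and Mrpl57. The one of Mrpl54 was nearer to the start of Apba3, and the one of Mrpl57 had a q-value above 0.05. Peaks with the motif had a median fold enrichment of 4.72 and those without 3.98. None of the 7 strongest peaks of the group, from Mrps18b to Mrpl47, had it. In Mrpl15 and Mrpl24 the motif lay closest to the summit, and 30 bases around it are shown for these and for Mrps10 and Mrpl54, with the motif in capitals; in Mrps10 and Mrpl54 it reads on the minus strand.
Mrpl15 site: actctggtaattCAACTGttacagtgcctg
Mrpl24 site: tccattttgtagCAACGGactagagttccc
Mrps10 site: cggagtcatcctCCGTTGgaggaagttatt
Mrpl54 site: gtctagattgtaCCGTTAtagatccttact
They lie on mm10 at chr1:4786035-4786064, chr3:87919542-87919571, chr17:47369036-47369065 and chr10:81267851-81267880.

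The ETS motif was found at a larger share of these summits than of all promoter summits. The ETS word CCGGAAG, searched on both strands, was within 50 bp of the summit in 8 of the 70 peaks (11.4%) and in 2.67% of all promoter peaks. Since it is common near starts, it was also counted among summits within 100 bp of a start, where 5 of 27 of these peaks had it (18.5%) and 7.13% of all coding ones. These shares rest on 8 and 5 peaks, and neither difference was tested. ETS factors are a large family that includes Gabpa, a known regulator of nuclear genes for mitochondrial proteins. The 8 peaks were those of Mrps18c, Mrpl13, Mrpl20, Mrpl30, Mrps23 and Mrps18a, the weaker peak of Mrpl1 and a weaker peak of Mrpl48. The one of Mrps18a had a q-value above 0.05, and the one of Mrpl13 was nearer to the start of Mtbp. Only Mrpl20 had both an ETS and a Myb motif under the summit. Sites of 30 bases on the plus strand, with the ETS word in capitals, are shown for 4 of them to let the flanks be compared, a choice made after the values were seen.
Mrps18c site: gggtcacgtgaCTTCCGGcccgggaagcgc
Mrpl13 site: gcggcaggaaaCCGGAAGtgcacgttgcgc
Mrpl30 site: ctgttcctctcCTTCCGGctgcggggacgt
Mrps23 site: tgccgcttccgCTTCCGGtaacagcccgag
They lie on mm10 at chr5:100798592-100798621, chr15:55557547-55557576, chr1:37890531-37890560 and chr11:88204392-88204421.

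Over the promoters themselves, taken from 250 bases before to 50 after the gene start, the same word was found in 27 of the 78 genes (34.6%), in 10.8% of all protein-coding genes and in 17.9% of CpG-rich ones. It was in 22 of the 55 bound genes (40.0%) and in 5 of the 23 unbound ones (21.7%). These windows were scored at the gene start only, whereas peaks were counted at any annotated start. Mrpl20, for example, had the ETS word under its summit but not in this window. For every motif, the split by peak therefore does not always describe the bound promoter. The NRF1 motif, GCGCA and GCGC with any base between them, was in 12 of the 78 (15.4%), in 5.99% of all and in 12.2% of CpG-rich genes. NRF1, a regulator of respiratory genes, had its motif in 6 of the 55 bound genes (10.9%) and in 6 of the 23 unbound ones (26.1%). The YY1 word AAGATGGCG was in 7 of the 78 (8.97%), in 1.7% of all and in 2.91% of CpG-rich genes. The Myb motif was in 18 of the 78 promoters (23.1%), in 27.1% of all and in 21.9% of CpG-rich ones, and by peak in 13 of 55 bound (23.6%) and 5 of 23 unbound genes (21.7%). The SP/KLF word CCCCGCCC was in 15 of the 78 (19.2%), in 21.7% of all and in 41.3% of CpG-rich genes. A match of these letters describes the window and does not show that the factor was there.

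**Figure D4:**
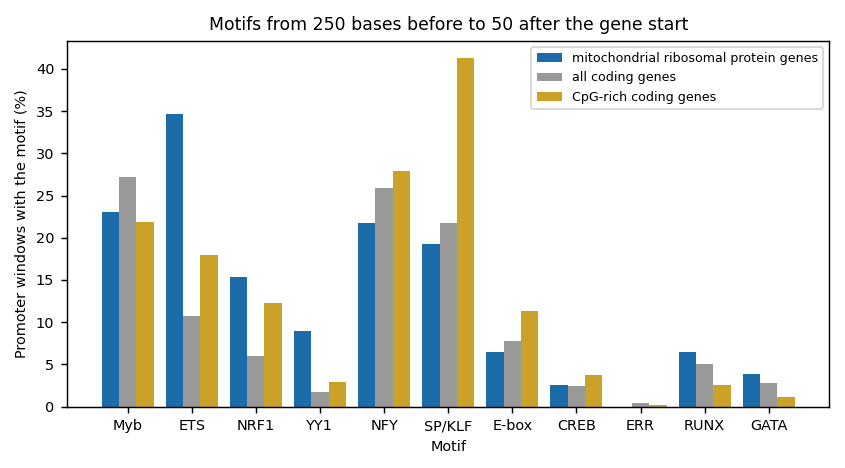
Share of promoter windows (y axis, percent) that hold each of 11 motifs (x axis) in the 78 mitochondrial ribosomal protein genes, in all protein-coding genes and in CpG-rich protein-coding genes. The ETS bar of the ribosomal genes, 34.6%, is above both others, at 10.8% and 17.9%, and the Myb bars lie between 21.9% and 27.1%.

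Other genes of mitochondrial translation had promoter peaks in 66.7% to 100% of cases by list, beside 39.9% of all protein-coding genes, with no test of the differences. All 5 ribosomal proteins of the mitochondrion that carry other names had a promoter peak. Of these Dap3, a GTP-binding protein of the small subunit, had 9.13, Ptcd3 had 9.05, Chchd1 had 5.44, Gadd45gip1 had 3.76 and Aurkaip1 had 3.12. Dap3 had 5 promoter peaks, more than any of the 78 genes. Translation factors were bound in 9 of 11 cases (81.8%), with Gfm2, which recycles ribosomes, highest at 7.35 and with Gfm1 and Mtif3 unbound. Aminoacyl-tRNA synthetases and the amidotransferase were bound in 16 of 22 (72.7%), with Yars2 highest at 7.59. Assembly and rRNA modification factors were bound in 18 of 27 (66.7%), with the pseudouridine synthase gene Trub2 highest at 13.3, followed by Rpusd4 at 8.88 and Nsun4, an rRNA methyltransferase, at 8.03.

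For comparison, the nuclear genes of respiratory chain subunits had a promoter peak in 60 of 85 cases (70.6%), nearly the share of the mitochondrial ribosomal genes, with a median strongest peak of 4.58. That list took in ATP synthase genes and several isoforms of some subunits, such as Cox8a (bound) and Cox8b and Cox8c (unbound). Its share therefore depends on the genes listed. The proteins of the cytosolic ribosome differed more: 77 of 78 genes were bound (98.7%), with a median of 5.16, and 40 of them had 2 or more peaks, against 13 of the 78 mitochondrial ones. CpG-rich promoters were found in 54 of the 78 cytosolic and 39 of the 78 mitochondrial genes, and a divergent coding neighbor was present in 21.8% and 42.3%.

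**Figure D5:**
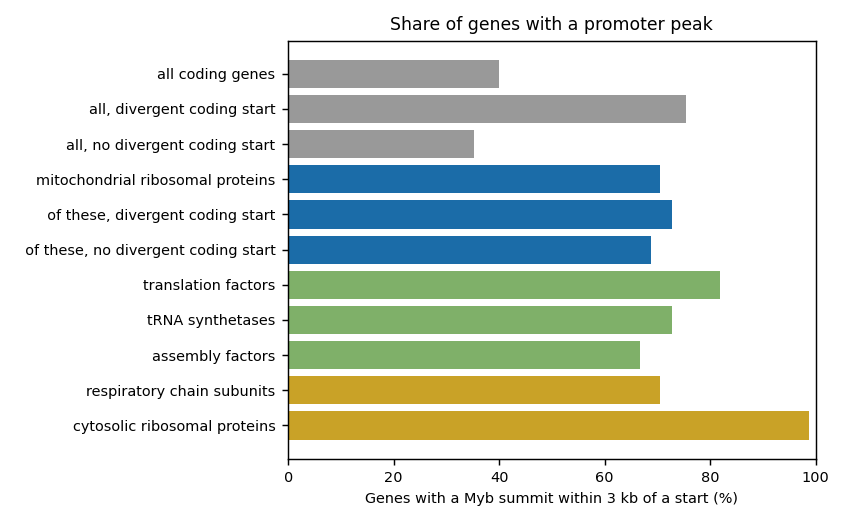
Share of genes with a Myb summit within 3 kb of a start (x axis, percent) for gene sets (y axis). The mitochondrial ribosomal protein genes (blue) stand at 70.5%, with 72.7% where a divergent neighbor is present and 68.9% where it is not, between all protein-coding genes (39.9%) and cytosolic ribosomal protein genes (98.7%).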

How the data were processed

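Myb ChIP-Seq was analysed in 1 Myb library with 1 IgG library as background; groups are from the sample titles. Per the labels, Tn5 adapters were inserted on the beads, followed by 12 PCR cycles. According to the submitters' processing notes, cutadapt 1.15, BWA 0.7.13, Picard and MACS2 2.1.1.20160309 were used with mm10. The authors deposited each peak's fold enrichment, with p-values and q-values as −log10 values. The fold enrichment was modeled as the ratio of scaled Myb pileup to local IgG background, with 1 added to each. The deposited score was not used.

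Summits were assigned to GENCODE vM21 (GRCm38.p6) transcript starts with Python 3.11.15, numpy 2.4.6, pandas 2.3.3 and scipy 1.17.1. Whole Myb reads were recovered from fold and p-value with a pileup scale of 0.769, matching in 100% of peaks within 0.002. This scale was applied to the Myb pileup only. Myb reads are given before this scaling, and the IgG background is given as recovered, with no scale applied. The recovery was tested on simulated data. Intervals on reads cover counting error only, and PCR copies are not independent molecules. Fold intervals hold the IgG background fixed. Intervals on the motif share and on medians treat peaks or genes of 1 library as independent draws. They give no variation between libraries. No test was possible between libraries. Alternatives covered peak thresholds, promoter windows, start sets, assignment and motif forms.

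Named in full were the 10 strongest and 5 weakest genes, those with 2 or more peaks and those whose strongest peak had a q-value above 0.05; every gene of the group is named. Members and gene lists were chosen with earlier results of these data known. Peaks of the IgG library were not analysed here.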

Additional observations from a re-analysis of the deposited data

How the results depend on the processing

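No paired analysis was possible because each group had 1 library. Of the recomputed values, 66 stayed near those reported (counts within 1.5 times, medians and shares within their 95% interval) and 8 moved. All settings drew on the same peak list, many as subsets of it. Values near those reported were therefore likely from the start, and the tally does not measure reproducibility. A −log10 q-value minimum of 5 gave 22 genes, 24 peaks, 17 large-subunit genes and 4 small-subunit genes, with a median fold enrichment of 5.68 and 7 genes whose peak was nearer to another gene; a stricter threshold removes weak peaks by construction. Searching the Myb motif within 100 bp of the summit raised its share to 30.0% (26.9% of all promoter peaks), and the looser AACNG raised it to 48.6% (51.1% of all promoter peaks), since both admit more matches. A q-value of at most 0.05 (49 genes, 60 peaks), the nearest coding start alone (46 genes, 55 peaks), the CpG ratio without a GC minimum and the S18 paralogs counted as bacterial were added after the data had been seen. Peaks with a median of 20 reads do not resolve small differences in enrichment, and without a replicate no variation between mice can be given.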
